A study of Nicotiana benthamiana with 12 samples.

Results

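The 66 genes described here are those whose transcripts were more abundant in pent1 than in wild type (WT) seedlings of Nicotiana benthamiana with and without abscisic acid (ABA), out of 45796 genes counted. A gene was chosen when its log2(mean CPM + 0.5) was higher in pent1 by at least 1.5 both under mock and under ABA, where CPM is the count relative to the library total, on the usual per-million scale, and the mean is over the 3 libraries of a group. These differences chose the genes, so they are given below as a description without a test. By the same size, 343 genes were higher in pent1 under mock (0.749% of the genes counted) and 86 under ABA (0.188%), so the 66 genes make up 19.2% of the mock list and 76.7% of the ABA list. In the opposite direction, 217 genes (0.474%) were lower in pent1 under both treatments.

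RNA came from whole seedlings of the LAB strain in 4 groups of 3 libraries, described by the submitters as independent replicates. The groups were pent1 with 10 µM ABA, pent1 with mock (0.1% DMSO, the solvent), WT with 10 µM ABA and WT with mock. Seedlings of every group spent 10 days in liquid medium after transfer at 10 days after germination, and were collected after 3 h of treatment. The gene or genes altered in pent1, and whether the line is a single isolate, are not stated in the labels. The genotypes were deposited in separate tables, so genotype and any technical difference between those tables cannot be told apart. Genes are named by ID because the files do not pair the IDs with names or products, and for the same reason the labelled tissue was not checked against marker genes. Levels are not adjusted for gene length, and in whole seedlings fewer cells of a type and less RNA per cell cannot be told apart.

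ABA is the hormone by which plants respond to drought and keep seeds dormant. In the pathway known from Arabidopsis, receptors of the PYR/PYL family bind ABA and then block type 2C protein phosphatases. This releases SnRK2 kinases, which phosphorylate transcription factors that raise or lower the transcripts of ABA target genes. N. benthamiana is an allotetraploid, so many genes have a near-identical partner copy, and a count assigned to one copy may hold reads of the other.

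Together the 66 genes took a small share of the transcripts, larger in every pent1 library than in every WT library. Their share of all counts was 0.239%, 0.247% and 0.330% in the pent1 ABA libraries (replicates 1 to 3) and 0.307%, 0.351% and 0.281% in pent1 mock, against 0.0619%, 0.0687% and 0.0675% in WT ABA and 0.0530%, 0.0456% and 0.0541% in WT mock. The ABA and mock libraries of pent1 overlapped in this share, whereas in WT the 3 ABA libraries stood above the 3 mock libraries. Library totals were 19371555 to 19678708 counts in pent1 and 18199288 to 18758918 in WT, and each of the 66 genes had counts in every pent1 library. The mean level over the 12 libraries ranged from 0.937 to 178.3 CPM, with a median of 14.03 CPM, and 5 genes averaged 100 CPM or more.

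The rule differences, pent1 minus WT on the log2(mean CPM + 0.5) scale, ran from 1.51 to 4.13 under mock with a median of 2.32, and from 1.5035 to 3.78 under ABA with a median of 1.78. Over the genes with a count the medians were 0.04 and -0.00. As ratios of group means, the 66 genes were 2.94-fold to 86.9-fold higher in pent1 mock than in WT mock. The top of this range is NbL03g06270, which had 1 count in WT mock. The difference was larger under mock for 52 genes and larger under ABA for 14. Of the 66, 18 had differences of at least 2 under both treatments and 4 had differences of at least 3. The pent1 and WT libraries did not overlap for any of the 66 under mock (22.5% of genes with a count stood above WT without overlap) or under ABA (17.5%), which follows largely from the choice.

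**Figure D1:**
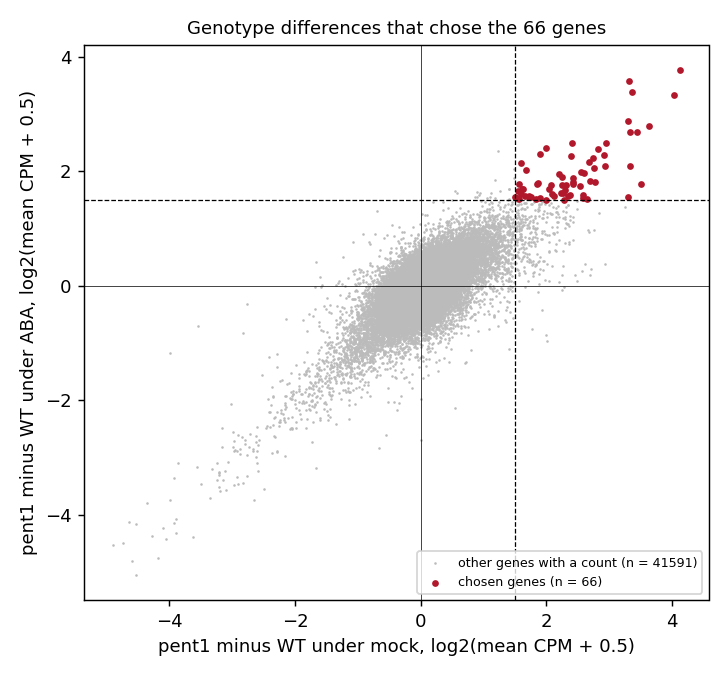
Difference between pent1 and WT in log2(mean CPM + 0.5) under mock (horizontal) and under ABA (vertical), with 1 point per gene with a count, the 66 chosen genes in red and the thresholds of 1.5 as dashed lines. The chosen genes fill the upper right corner, most of them with a larger difference under mock (52) than under ABA (14).

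At the threshold, NbL16g14060 was the last gene inside, with differences of 2.27 under mock and 1.5035 under ABA. The first gene outside was NbL18g12310, at 1.86 under mock and 1.4978 under ABA.

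The choice was also repeated on 2 of the 3 replicate numbers, with the differences then read in the libraries left out. Without replicate 1 the rule chose 72 genes, and their median difference in the left-out libraries was 2.14 under mock and 1.54 under ABA. Without replicate 2 it chose 70 genes, with left-out medians of 2.52 and 1.55, and without replicate 3 it chose 64 genes, with 1.71 and 1.87. The medians over all genes in the left-out libraries, genes without a count included, were 0.03, 0.00 and 0.00 under mock and 0.00 each under ABA. The left-out difference was above 0 under both treatments for 72 of 72, 70 of 70 and 63 of 64 genes, and it was at least 1.5 under both for 45.8%, 51.4% and 53.1% of them. Each left-out value rests on 1 library per group, so no test was made. The left-out libraries come from the same table per genotype as the others. A technical difference between the tables would recur in them, so these values are not independent of it.

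The difference was largest, by the smaller of the rule differences, for NbL16g02030 and NbL12g03410. NbL16g02030 stood at 15.3, 13.3 and 13.5 CPM in pent1 ABA and 21.5, 15.4 and 17.9 CPM in pent1 mock, against 0.713, 0.426 and 0.549 CPM in WT ABA and 0.440, 0.915 and 0.374 CPM in WT mock. Its pent1 libraries lay close together and far above those of WT, at 25.0-fold under ABA and 31.7-fold under mock. NbL12g03410 stood at 5.74, 12.3 and 15.1 CPM in pent1 ABA and 22.0, 7.74 and 1.28 CPM in pent1 mock, against 0.713, 0.373 and 0.714 CPM in WT ABA and 0.659, 0.377 and 0.641 CPM in WT mock. Here the pent1 libraries were far apart, and pent1 mock replicate 3 came nearest to WT.

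A single gene of the 66 was almost without counts in WT. NbL03g06270 had 127 counts in pent1 ABA and none in WT ABA, and is thus at least 39.8-fold higher in pent1 when WT is set to a floor of 3 counts over its 3 libraries. Under mock it had 91 counts in pent1 and 1 in WT, 86.3-fold more relative to the library totals (95% interval from counting alone, 15.1 to 3446). Its pent1 ABA libraries held 0.508, 1.73 and 4.28 CPM, so replicate 3 carried most of the ABA counts. The other 65 genes had more than 3 counts over the 6 WT libraries, and 11 of the 66 averaged under 1 CPM in WT.

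**Figure D2:**
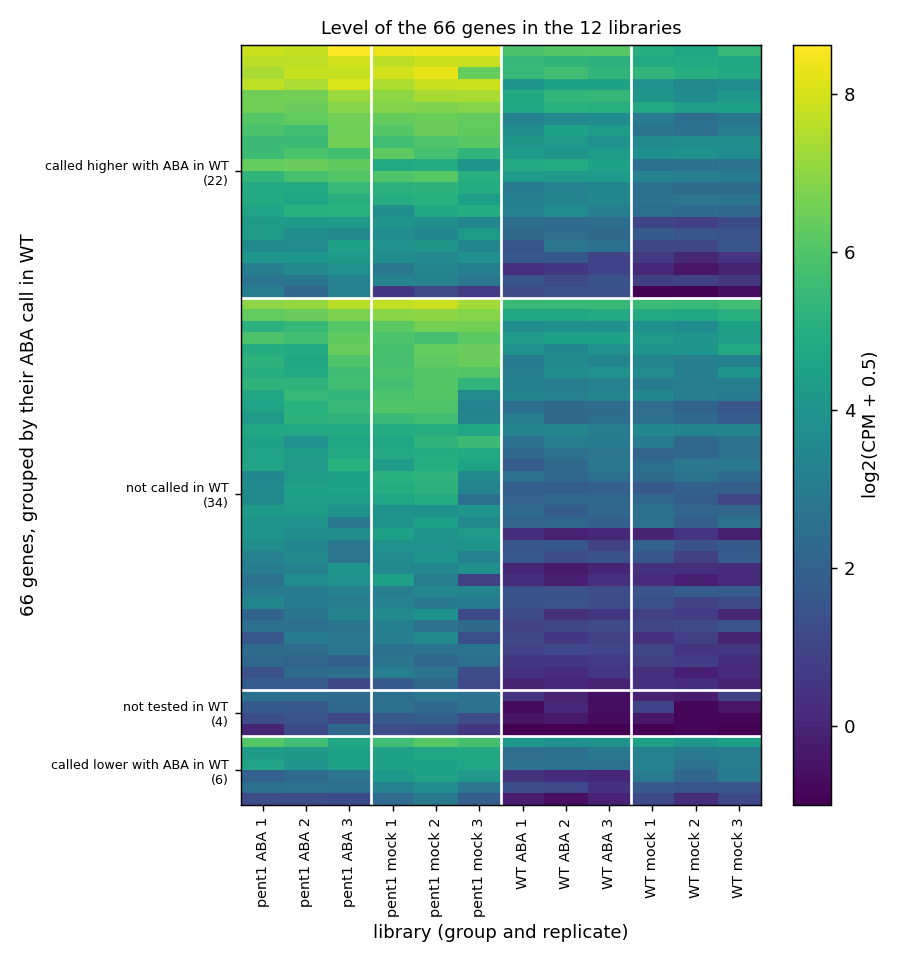
Level of each of the 66 genes, as log2(CPM + 0.5), in the 12 libraries, with genes as rows grouped by their ABA call in WT (22 higher, 34 not called, 4 not tested, 6 lower) and sorted by mean level within each group. Under each treatment the 3 pent1 columns are brighter than the 3 WT columns along each row, and several rows darken in pent1 mock replicate 3.

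The comparison of ABA with mock within each genotype, which the choice of genes did not use directly, asked whether these genes also respond to the hormone. In pent1, 4 of them rose with ABA and 2 fell, and in WT, 22 rose and 6 fell. The 6 genes called in pent1 were called in WT in the same direction. How often this held over all genes called in pent1 was not counted. Genes that rose in WT had a median log2 fold change of 0.10 in pent1 and of 0.95 in WT, and 17 of these 22 had a fold change above 0 in pent1. Those that fell in WT had medians of -0.51 in pent1 and -0.58 in WT, and none of these 6 had a fold change above 0 in pent1. Passing the test in WT favours a larger value there than in pent1, and the other 6134 genes that rose in WT had medians of 0.31 in pent1 and 0.57 in WT, while the other 5791 that fell had -0.14 in pent1 and -0.42 in WT. Of these other genes, 77.8% of those that rose and 69.6% of those that fell had the same sign in pent1 (6025 and 5731 tested there). Whether the 28 genes differ from these was not tested.

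In pent1, 66 of the 66 genes passed the filter on low counts and 6 were called, which here means a Benjamini-Hochberg adjusted p under 0.05 over the 33197 genes tested with edgeR. That is 9.09% of the genes, near the 11.1% called among all genes tested. Rises were called for 6.06% of the 66 against 7.24% of all genes, and falls for 3.03% against 3.84%. At an unadjusted p under 0.05 there were 15 genes, 5 higher and 10 lower (24.2% of all genes). DESeq2 called 4 higher and 5 lower, against 9.82% of the 36409 genes to which it gave an adjusted p. The median log2 fold change was -0.15 against -0.01 over all genes tested, and 4 genes changed by a log2 fold change of at least 1 in either direction. Without pent1 ABA replicate 3, 17 genes were called, 5 higher and 12 lower, and the median was -0.27. The share of all genes called in that fit was not counted. Leaving out pent1 ABA replicate 1 or 2 gave a median of -0.05 or -0.06, and leaving out pent1 mock replicate 2 gave -0.02.

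In WT, 62 of the 66 genes passed the filter, and 28 were called by edgeR over 33170 genes. These are 45.2% of the genes tested, against 36.0% called among all genes. Rises were called for 35.5% of the 62 against 18.6% of all genes, and falls for 9.68% against 17.5%. DESeq2 called 21 higher and 4 lower, against 24.8% in either direction of the 36175 genes to which it gave an adjusted p. At an unadjusted p under 0.05 edgeR gave 22 higher and 7 lower (44.2% of all genes). The median log2 fold change was 0.26 against -0.02 over all genes, and was 0.17 without WT ABA replicate 3. The difference between the share among the 62 and that among all genes was not tested. The 4 genes too low to test in WT include NbL03g06270.

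NbL02g01320 and NbL02g23060 had the largest rises with ABA in both genotypes. NbL02g01320 stood at 81.2, 86.1 and 76.3 CPM in pent1 ABA and 29.0, 29.6 and 16.0 CPM in pent1 mock, and at 27.4, 29.6 and 22.5 CPM in WT ABA and 5.27, 5.43 and 5.77 CPM in WT mock. ABA and mock libraries did not overlap in either genotype, and pent1 mock overlapped WT ABA. The log2 fold change was 1.80 (SE 0.19) in pent1 and 2.28 (SE 0.10) in WT (edgeR, adjusted p = 6.94e-05 in pent1 and 5.05e-13 in WT). The difference of the responses, pent1 minus WT, was -0.48 (SE 0.24, edgeR, adjusted p = 0.272).

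For NbL02g23060, libraries held 7.93, 4.12 and 8.62 CPM in pent1 ABA and 0.970, 1.86 and 1.12 CPM in pent1 mock, and 1.86, 2.08 and 2.03 CPM in WT ABA and 0, 0 and 0.160 CPM in WT mock. The WT mock libraries held only 3 counts together. Its log2 fold change in pent1 was 2.47 (SE 0.34, edgeR, adjusted p = 0.000853). In WT the ratio of summed counts, 110 with ABA to 3 in mock, was 36.9 (95% interval from counting alone, 12.3 to 181.4; edgeR adjusted p = 1.14e-07).

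The other 2 genes that rose in pent1 were chosen for mention after their values were seen. NbL12g08660 stood at 18.9, 18.6 and 18.5 CPM in pent1 ABA and 15.6, 13.6 and 10.1 CPM in pent1 mock, a log2 fold change of 0.60 (SE 0.13, edgeR, adjusted p = 0.0104). NbL04g05320 stood at 16.2, 16.8 and 18.6 CPM in pent1 ABA and 13.2, 11.2 and 14.1 CPM in pent1 mock, a log2 fold change of 0.51 (SE 0.13, edgeR, adjusted p = 0.0202). The ABA and mock libraries did not overlap for either gene. The call for NbL04g05320 was lost with library-size scaling alone (adjusted p = 0.0508) and without pent1 ABA replicate 2 (0.0519), pent1 mock replicate 1 (0.0874) or pent1 mock replicate 2 (0.0879).

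NbL11g17290 had the largest fall in both genotypes. Its levels were 3.56, 4.63 and 6.09 CPM in pent1 ABA and 18.5, 22.6 and 17.6 CPM in pent1 mock, and 0.822, 0.693 and 0.549 CPM in WT ABA and 7.03, 3.98 and 7.48 CPM in WT mock. ABA libraries lay below mock libraries without overlap in each genotype, and the pent1 ABA and WT mock libraries overlapped. The log2 fold change was -1.95 (SE 0.19) in pent1 and -3.14 (SE 0.27) in WT (edgeR, adjusted p = 2.35e-05 in pent1 and 1.05e-07 in WT). The difference of the responses was 1.19 (SE 0.40, edgeR, adjusted p = 0.105).

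NbL12g02790 fell as well, to 1.83, 1.88 and 1.75 CPM in pent1 ABA against 4.60, 6.92 and 3.27 CPM in pent1 mock, and to 0.329, 0.160 and 0.439 CPM in WT ABA against 1.70, 0.700 and 1.60 CPM in WT mock. No ABA library reached a mock library of its genotype. Its log2 fold change was -1.35 (SE 0.27, adjusted p = 0.00482) in pent1 and -2.08 (SE 0.42, adjusted p = 0.000581) in WT, both from edgeR.

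NbL14g15070, named for its fall in WT, stood at 5.44, 5.55 and 5.11 CPM in pent1 ABA and 8.94, 12.5 and 6.39 CPM in pent1 mock, and at 1.97, 1.71 and 0.823 CPM in WT ABA and 2.75, 2.31 and 2.30 CPM in WT mock. The log2 fold change was -0.70 in pent1 (SE 0.21, edgeR, adjusted p = 0.0538) and -0.69 in WT (SE 0.25, edgeR, adjusted p = 0.0332). The fold changes were thus alike in size on either side of the threshold. The WT call was lost with DESeq2 (adjusted p = 0.118), with 12 libraries in one fit (0.110), and without WT ABA replicate 3 (0.182) or WT mock replicate 1 (0.0968), 2 (0.0509) or 3 (0.0557).

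**Figure D3:**
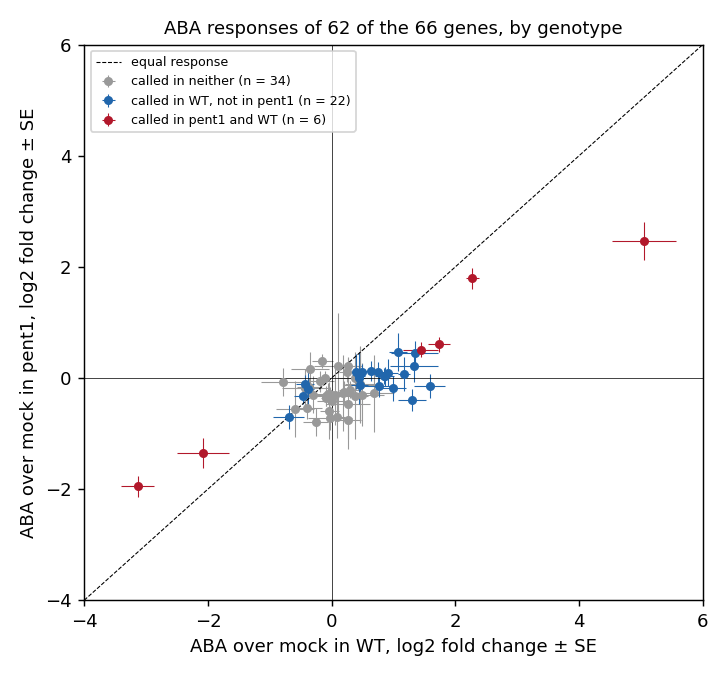
Log2 fold change of ABA over mock in WT (horizontal) and in pent1 (vertical), with standard errors, for the 62 genes tested in both genotypes, coloured by whether the change was called in both (6), in WT alone (22) or in neither (34). Most genes called in WT alone lie to the right of 0 and close to 0 on the pent1 axis, and the 6 called in both lie between the horizontal axis and the dashed line of equal response.

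The difference between the genotypes' ABA responses was then tested directly on the 12 libraries. It equals the difference of the contrasts that chose the genes, so its counts describe them and are not independent of the choice. A negative difference, pent1 minus WT, was called for 4 of the 66 genes, which are 6.06% against 2.17% of the 34026 genes tested, and a positive difference for 0 (1.20% of genes tested, and 3.37% in either direction). At an unadjusted p under 0.05, edgeR gave 15 negative and 2 positive differences (21.5% of all genes). After adjustment DESeq2 called 6 negative and 1 positive, against 6.81% of the 27927 genes to which it gave an adjusted p. The 4 called genes were among the 22 that rose in WT, whose differences were negative in 22 cases. A rise in WT itself favours a negative difference, which 82.5% of the other 6134 genes that rose in WT also had. The median difference over the 66 genes was -0.44, against 0.00 over all genes tested.

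The number of these calls rested on single libraries. It was 13 without pent1 ABA replicate 3, and 1 or 2 without pent1 ABA replicate 1 or 2, pent1 mock replicate 2, WT ABA replicate 2 or 3, or WT mock replicate 1, 2 or 3. Without WT mock replicate 2 the 4 negative calls were lost, and 1 positive difference was called that had not been called with 12 libraries. The share of all genes called in each of these fits was not counted. Whether the calls over all genes rose and fell in the same way was therefore not tested.

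NbL13g05380 and NbL03g20640 had the largest called differences. NbL13g05380 stood at 58.1, 50.5 and 89.1 CPM in pent1 ABA and 66.7, 88.2 and 76.5 CPM in pent1 mock, and at 13.5, 23.7 and 19.3 CPM in WT ABA and 6.15, 5.17 and 7.64 CPM in WT mock. In pent1 the treatments overlapped, whereas in WT each ABA library stood above each mock library. The log2 fold change with ABA was -0.14 (SE 0.22, adjusted p = 0.754) in pent1 and 1.59 (SE 0.25, adjusted p = 0.0037) in WT, and the difference was -1.73 (SE 0.39, adjusted p = 0.0425), each from edgeR. Over 19 alternatives the adjusted p-values for the difference ran from 0.00166 (DESeq2) to 0.112 (edgeR), and 11 of them lost the call.

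NbL03g20640 stood at 92.2, 93.7 and 144.6 CPM in pent1 ABA and 127.2, 163.4 and 170.2 CPM in pent1 mock, and at 28.1, 40.8 and 42.1 CPM in WT ABA and 15.4, 12.2 and 17.8 CPM in WT mock. Again the pent1 treatments overlapped and the WT treatments did not. The log2 fold change was -0.40 (SE 0.20, adjusted p = 0.269) in pent1 and 1.30 (SE 0.22, adjusted p = 0.00698) in WT, and the difference was -1.70 (SE 0.33, adjusted p = 0.0236), each from edgeR. Over 19 alternatives the adjusted p-values for the difference ran from 0.000454 (DESeq2) to 0.0648 (edgeR), and 7 of them lost the call.

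The levels of the genes that rose in WT can also be read across genotypes. Of the 22, 20 stood higher in each pent1 mock library than in each WT ABA library, against 13.0% of all genes that rose with ABA in WT. The exceptions were NbL02g01320 and NbL02g23060, whose values are given above. Over the 66 genes this held for 63, against 23.9% of genes with a count. The choice required pent1 to exceed WT at each treatment, which favours this order.

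The highest mean levels belonged to NbL06g07970 and NbL05g18480. NbL06g07970 held 228.8, 211.8 and 394.0 CPM in pent1 ABA and 321.0, 344.7 and 345.4 CPM in pent1 mock, against 57.0, 68.0 and 69.7 CPM in WT ABA and 31.3, 24.9 and 43.0 CPM in WT mock. Within pent1, ABA replicate 3 stood above the mock libraries and the other ABA libraries below them. Its log2 fold change with ABA was -0.19 in pent1 (SE 0.22, edgeR, adjusted p = 0.67) and 0.99 in WT (SE 0.22, edgeR, adjusted p = 0.0213). The WT call was lost without WT ABA replicate 2 (adjusted p = 0.0708), WT ABA replicate 3 (0.0818) or WT mock replicate 1 (0.0937).

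NbL05g18480 held 204.9, 209.0 and 252.1 CPM in pent1 ABA and 203.3, 231.1 and 222.8 CPM in pent1 mock, against 41.7, 39.2 and 36.1 CPM in WT ABA and 28.5, 28.9 and 26.7 CPM in WT mock. The pent1 treatments overlapped and the WT treatments did not. Its log2 fold change with ABA was 0.10 in pent1 (SE 0.14, edgeR, adjusted p = 0.719) and 0.49 in WT (SE 0.07, edgeR, adjusted p = 1.29e-05).

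A further 38 genes were called for ABA in neither genotype, 4 of them untested in WT. The most abundant was NbL15g10130, at 124.2, 138.2 and 193.2 CPM in pent1 ABA and 207.5, 228.8 and 155.1 CPM in pent1 mock, against 44.1, 43.9 and 44.4 CPM in WT ABA and 46.8, 42.9 and 50.02 CPM in WT mock. Treatments overlapped in both genotypes. NbL07g06920 came next, at 78.7, 84.4 and 104.6 CPM in pent1 ABA and 121.2, 127.1 and 118.4 CPM in pent1 mock, against 25.9, 27.0 and 28.8 CPM in WT ABA and 28.8, 26.6 and 32.6 CPM in WT mock. Its pent1 ABA libraries stood below its pent1 mock libraries, with a log2 fold change of -0.37 that did not pass the test (SE 0.14, edgeR, adjusted p = 0.116).

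**Figure D4:**
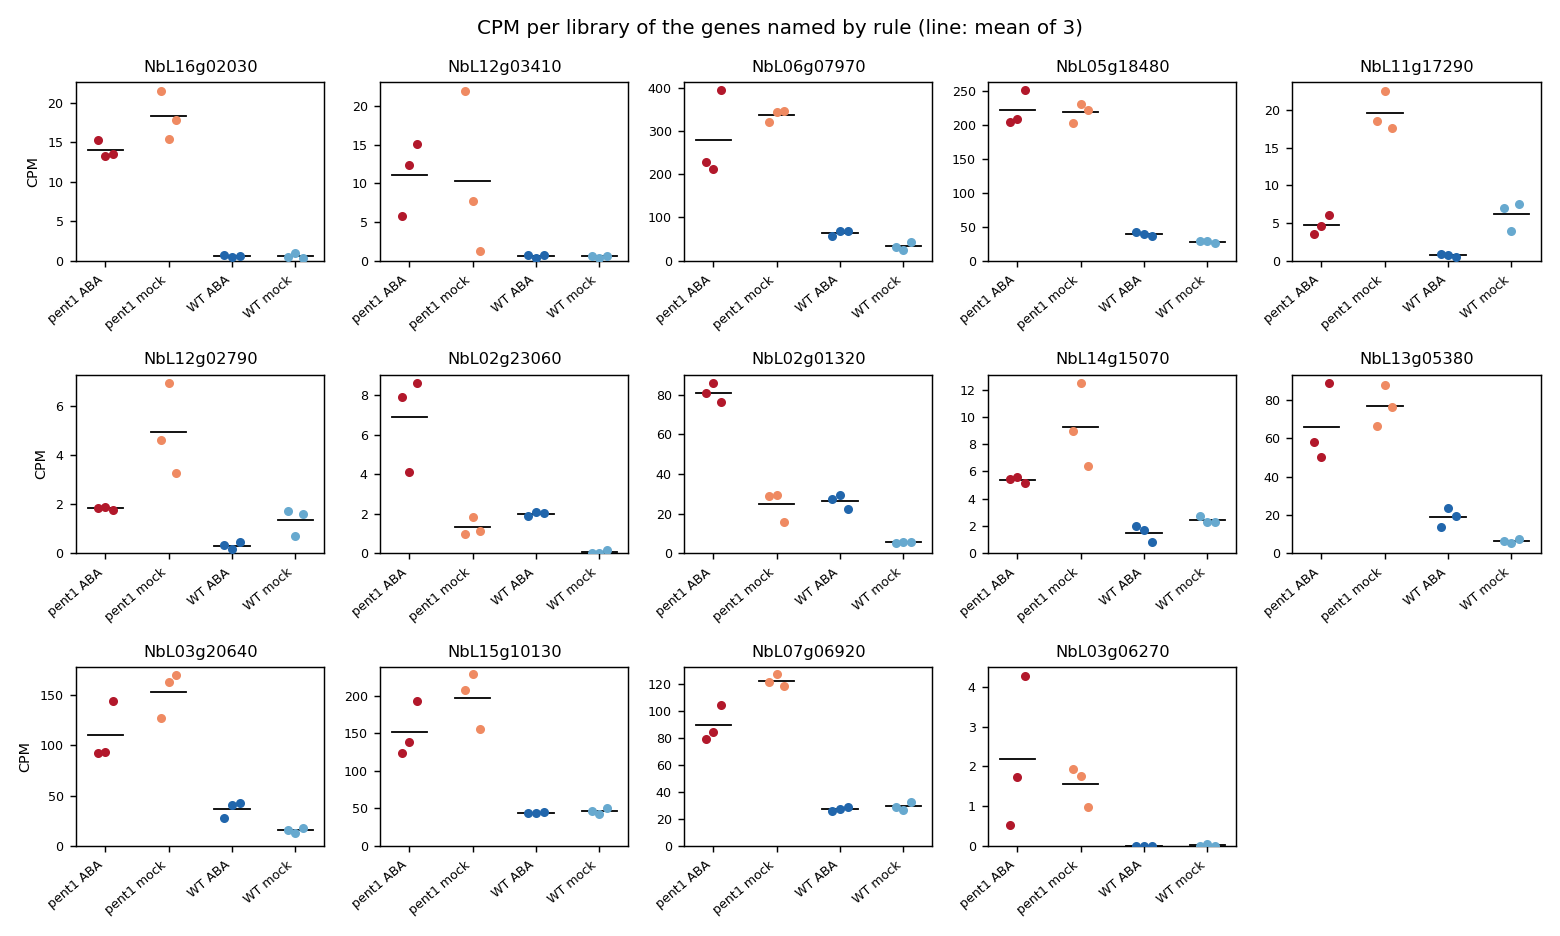
CPM in each of the 12 libraries for the 14 genes named by rule, with 1 point per library and a line at the mean of each group of 3, and with axes that start at 0. The pent1 groups stand above the WT groups of the same treatment in each panel, while the spread within pent1 differs from gene to gene, as in NbL12g03410 and NbL06g07970.

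Within pent1 the 66 genes did not vary alike between replicates. In pent1 mock, 12 of them (18.2%) had a log2(CPM + 0.5) in replicate 3 that was at least 1 below that of the mean of replicates 1 and 2, against 0.498% of the 31105 genes averaging at least 1 CPM in pent1. Of the 343 genes higher in pent1 under mock, 37 had the same low replicate 3 and averaged at least 1 CPM in pent1. The choice used the mean of the 3 pent1 mock libraries, so a gene could enter it largely on replicates 1 and 2. The grouping of the 12 was made after the values were seen and was not tested. The 12 genes summed to 318.7, 479.7 and 509.0 CPM in pent1 ABA and 620.6, 704.4 and 178.4 CPM in pent1 mock, against 102.7, 99.3 and 95.9 CPM in WT ABA and 84.2, 71.6 and 60.1 CPM in WT mock. In pent1 ABA, replicate 1 was the lowest library for 12 of the 12, compared with 19 of the other 54 genes.

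NbL02g07700, picked after its values were seen, shows the pattern. Its levels were 22.6, 34.5 and 44.2 CPM in pent1 ABA and 63.7, 62.7 and 9.10 CPM in pent1 mock, against 5.15, 4.53 and 4.78 CPM in WT ABA and 4.95, 3.82 and 2.40 CPM in WT mock. The highest pent1 mock library exceeded the lowest by a median of 5.32-fold over the 12 genes and of 1.38-fold over the other 54, and in WT mock the medians were 1.79-fold over the 12 and 1.45-fold over the 52 others with counts in each library. With replicate 3 as the sole pent1 mock library, 2 of the 12 and 44 of the other 54 reached a difference of 1.5 from WT mock, a contrast that the grouping by this library favours.

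This spread bears on the ABA comparison. The standard error of the log2 fold change in pent1 had a median of 0.68 over the 12 genes and 0.20 over the other 54, while in WT the medians were 0.22 and 0.20. Their log2 fold changes with ABA in pent1 were -0.59 to 0.22, with edgeR adjusted p-values of 0.572 to 0.999. In WT, 2 of the 12 were called, against 45.2% of the 62 genes tested there and 36.0% of all genes. With this spread a difference between the responses of the 12 genes in pent1 and WT is measured less precisely than for the other genes.

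**Figure D5:**
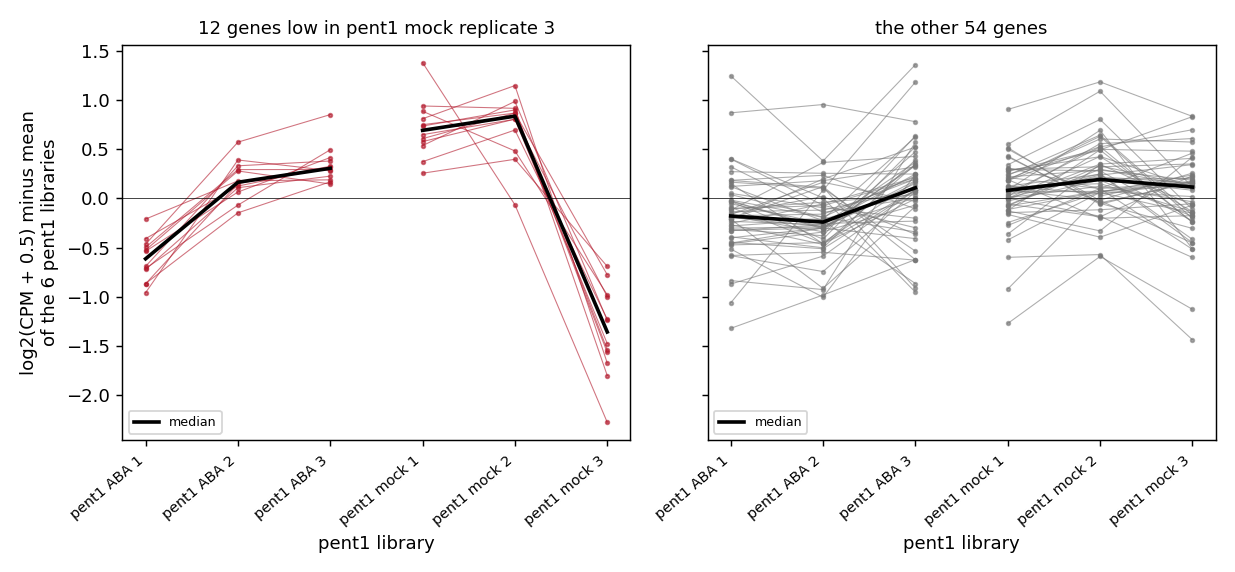
Level of each gene in the 6 pent1 libraries, as log2(CPM + 0.5) minus the gene's mean over them, for the 12 genes low in pent1 mock replicate 3 (left, red) and the other 54 (right, grey); lines join the libraries of a group for the same gene and the black line is the median. The 12 genes are low in pent1 mock replicate 3 and lowest in replicate 1 of pent1 ABA, and the median of the other 54 varies less.

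A different library stood out among the genes as a whole. In pent1 ABA, replicate 3 was the highest library for 46 of the 66 genes, against 32.5% of the genes averaging at least 1 CPM in pent1, and the lowest for 14, against 43.4%. The choice used the mean of the 3 pent1 ABA libraries, which favours genes with 1 high library, and the comparison genes were not so chosen. The part of replicate 3 in the genotype difference under ABA can be read from the rule: without this library 56 genes were chosen, 50 of them among the 66. Without pent1 ABA replicate 1 or 2 the rule kept 59 or 63 of the 66, and without a WT ABA library 58 to 62.

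The IDs were spread over most of the numbering. Members carried 18 of the 20 two-digit ID prefixes, with at most 9 genes under a prefix. By share of their IDs, prefixes 12 (0.350%), 02 (0.339%) and 03 (0.278%) held the most, while prefixes 00 and 08 held none. In the sorted ID order, the next ID was also chosen for 4 of the 66 genes, whereas 0.144% of all IDs were chosen. These 4 pairs of adjoining IDs hold 8 genes. The pairs were NbL02g23060 with NbL02g23070, NbL10g01630 with NbL10g01640, NbL12g06900 with NbL12g06910, and NbL15g15810 with NbL15g15820. Levels within a pair could differ widely, as with 2.56 CPM for NbL02g23060 and 115.0 CPM for NbL02g23070 on average over the 12 libraries. Whether neighbours in ID order overlap or lie side by side in the genome is not stated in the files, nor is whether counting used strand, so reads that a pair shares cannot be told apart.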

How the data were processed

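The authors deposited raw counts of reads for each gene, not normalized, in 1 table per genotype with the same IDs. Per the labels' protocols, a strand-specific mRNA kit was used, and the submitters' processing notes name FastQC, cutadapt, STAR and DESeq2. The counter, genome build, annotation, use of strand and treatment of reads with several matches are not stated there. Totals were 18199288 to 19678708 counts per library, and counting intervals (95%, exact) and floors cover counting error only. The 66 genes, the lists and the naming rule were chosen with earlier results of these data known.

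ABA was compared with mock on the 6 libraries of each genotype, and the difference of responses on 12 libraries, with edgeR 4.0.16 (quasi-likelihood; R 4.3.3, robust, TMM, filterByExpr with a count minimum of 10). P-values were adjusted by Benjamini-Hochberg over all genes tested, with a threshold of 0.05. Standard errors are those implied by F. The fits were also run on simulated counts that varied independently for each gene. That simulation held no shift of many genes in a single library, so it does not bear on such shifts. DESeq2 1.42.0 was an alternative. Genes are named per comparison: the 2 largest genotype differences, the 2 highest levels, the 2 highest and 2 lowest called fold changes at 1 CPM or more, the 2 most abundant without an ABA call, any with 3 or fewer WT counts, and those at the threshold. Same-numbered libraries correlated little in their deviations, so the main fits had no block. Whether they were handled as matched sets is not known.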

Additional observations from a re-analysis of the deposited data

Results flagged for a closer look

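Tested for unequal ABA responses in pent1 and WT, edgeR called 4 of the 66 genes (6.06%), against 3.37% of all genes tested. Each had a lower log2 fold change in pent1, a direction called for 2.17% of all genes tested. All 4 rose with ABA in WT, and 82.5% of the other 6134 genes that rose there also had a negative difference. The log2 differences, pent1 minus WT, were -1.73 for NbL13g05380, -1.70 for NbL03g20640, -1.13 for NbL12g08660 and -0.81 for NbL12g06900, the last 2 named after their values were seen. NbL12g08660 stood at 18.9, 18.6 and 18.5 CPM in pent1 ABA and 15.6, 13.6 and 10.1 CPM in pent1 mock, and at 5.10, 4.69 and 5.05 CPM in WT ABA and 1.48, 1.24 and 1.76 CPM in WT mock. Its difference (edgeR, adjusted p = 0.0105) missed the threshold in 1 of 19 alternatives, without WT mock replicate 2 (0.0524). NbL12g06900 stood at 67.6, 77.7 and 93.6 CPM in pent1 ABA and 81.1, 88.0 and 78.8 CPM in pent1 mock, and at 9.15, 11.6 and 12.3 CPM in WT ABA and 7.31, 5.06 and 6.20 CPM in WT mock. Its difference (edgeR, adjusted p = 0.0415) missed it in 10 of 19 (up to 0.127). The rule that chose the genes used the contrasts of which this difference is made.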

How the results depend on the processing

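The rule chose 350 genes at a log2 difference of 1 and 18 at 2. With 0.1 CPM added in place of 0.5 it chose 133, which held the 66, and with 1 CPM added it chose 47, all among the 66. With the median CPM of a group it chose 58, of which 47 were among the 66, and with TMM-scaled totals 66, of which 63 were. It chose 56 to 76 genes when a library was left out. The genes called for ABA in pent1 numbered 5 to 17 without a library, where the 17 came without pent1 ABA replicate 3. In WT they numbered 23 to 28. The calls on the difference of responses numbered 1 to 13 without a library and 7 with DESeq2. The median ABA log2 fold change was -0.27 to -0.02 in pent1 and 0.17 to 0.32 in WT without a library. With the replicate block 10 genes were called in pent1, against 6, 30 in WT, against 28, and 4 for the difference. The shares of all genes called without a library or with the block were not counted. Same-numbered ABA and mock libraries had deviations that correlated at -0.06, -0.02 and 0.10 in pent1 and 0.05, -0.04 and 0.03 in WT. Not every library correlated best with its own number, and the highest value was 0.18, for pent1 ABA replicate 2 with pent1 mock replicate 1. Whether same-numbered libraries were handled as a set cannot be told from these values. Of 244 alternative values for the single genes tested, 202 kept their side of the threshold, 42 lost a call and 0 changed sign. The cause of these shifts was not tested. Depth limits the 4 genes too low to test in WT.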

Other observations

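Beyond the 66 genes, 155 genes averaging at least 1 CPM in pent1 (the 12 included) had a log2(CPM + 0.5) in pent1 mock replicate 3 at least 1 below that of the mean of replicates 1 and 2. Replicate 1 was the lowest pent1 ABA library for 109 of these 155 (70.3%), against 36.0% of the 31105 genes at that level. Their median difference between pent1 and WT, on the scale of the rule, was 0.54 under mock and 0.46 under ABA, and 37 of them reached 1.5 under mock. The 277 genes that reached 1.5 under mock but not under both treatments had a median difference of 0.95 under ABA, which was above 0 for 268 of them.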
